A study of Mus musculus with 6 samples.

Results

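Core splicing factors and RNA helicases were examined as genes whose own transcripts are alternatively processed. Members were chosen by gene symbol: the SR family (*Sfrs*, *Tra2*, *Srrm*, *Rnps*), the hnRNP family (*Hnrp*, *Hnrnp*), the numbered *Rbm* genes and *Rbmx*, the small nuclear ribonucleoprotein and particle genes (*Snrp*, *Lsm*, *Luc7l*, *Prpf*), the branch site and 3' splice site factors (*Sf3a*, *Sf3b*, *Sf1*, *U2af*), the *Clk* kinases, and the *Ddx* and *Dhx* helicases. *Rbm9* (2 events) was left out by the rule, as was 1 event, of *Prpf19*, inside the congenic interval of *Nxf1* on chromosome 19. This left 191 alternative events in 110 genes, of 13002 events in 7788 genes on the array. All 191 had intensities, as did 12948 events in 7766 genes of the whole table.

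Brain RNA came from 6 mice of 1 B6.CAST congenic line, 3 homozygous for the B6 allele and 3 for the CAST allele of *Nxf1*, the gene for the major mRNA export receptor. Each animal was hybridized to 1 Affymetrix MJAY array, which carries probe sets for the exons and junctions of each path of an alternative event. The mice formed 3 same-sex littermate pairs of opposite genotype, with no treatment: a female pair 46 days old from generation N37F1, a male pair (B6 22 days, CAST 23 days) and a female pair 23 days old, both from generation N36F2. A congenic line carries donor DNA around the selected gene, so both the *Nxf1* allele and the linked CAST interval differ between the groups, and their effects cannot be told apart here.

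Splicing factors act on the transcripts of other genes, and many also act on their own. SR proteins bind exonic enhancers and mostly promote exon inclusion, hnRNP proteins often oppose it, and CLK kinases phosphorylate SR proteins and release them from nuclear speckles. The snRNP particles, with SF1, U2AF and SF3 proteins, recognize the splice sites and the branch site, and DEAD and DEAH box helicases remodel the RNA and protein contacts between steps. Many of these genes hold highly conserved exons or introns whose inclusion introduces a premature stop codon, and the resulting transcripts are degraded by nonsense-mediated decay, a widespread form of autoregulation in this family. In brain, several members are abundant, and *Snrpn*, a neuronal core protein of the snRNP particle, is imprinted.

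For each event the deposited table holds 1 exclusion and 1 inclusion intensity for each of 2 sets, A and B, pooled by the authors over 3 arrays. The isoform shift used below is the log2 of the exclusion to inclusion ratio of set B divided by that of set A, so a value above 0 means relatively more exclusion in set B. The level shift is the mean of the log2 changes, set B over set A, of the exclusion and the inclusion intensity. Which genotype each set holds is not written in the table. From its own definition of a score as mutant over wild type, together with the Methods, set B was likely the *Nxf1* CAST set, and "B" does not stand for the B6 allele. No value per array was given, so no spread between animals, error or test could be computed, and every value below is a description of 2 pooled sets with no replicate check. Rounding of the intensities to whole numbers moved no member's isoform shift by more than 0.0334, and intensities of different probe sets cannot be read as levels relative to each other. An event was called when its absolute isoform shift exceeded 0.5, about 1.41-fold.

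Markers of brain cells had signal in the table, though a comparison between genes rests on different probe sets. Of 12 neuronal genes, 10 had events, and the highest inclusion intensity of each in set A ran from 748 (*Stmn2*) to 12087 (*Snap25*). The 5 astrocyte genes reached 444 to 8619 and the 4 oligodendrocyte genes with events 708 to 11314, and the 2 microglial genes 258 and 318. Of 8 genes of other tissues, 4 had events and stayed between 87 and 359, a range that takes in both microglial genes, so these markers do not separate microglia from other tissues. *Map2*, *Tubb3*, *Mog*, *Sox10*, *Cx3cr1* and *Aif1* had no event in the table.

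Few events shifted past the threshold, among the splicing factor and helicase genes as over the whole table. The median absolute isoform shift was 0.17 over the 191 events and 0.18 over all 12948, and the 90th percentiles were 0.42 and 0.45. Of the 191, 10 events (5.24%) were called, against 950 events (7.34%) over the whole table. Without events holding an intensity under 100, 5 of 156 (3.21%) were called, against 6.50%. The calls fell in 10 different genes, so none of the 23 genes with 2 events and none of the 26 with 3 or more had a second called event. Above 0.5 lay 5 of the 191 events, of *Sfrs15*, *Hnrnpa2b1*, *Lsm11*, *Sfrs6* and *Hnrpll*, against 596 of all 12948 (4.60%). Below -0.5 lay 5 of the 191 events, of *Hnrnpa3*, *U2af2*, *Prpf38b*, *Ddx60* and *Lsm6*, a share near that of all events, 354 of 12948 (2.73%). With the median of all events subtracted, the split of calls became 4 above and 9 below, and 6.81% of members were called against 7.12% of all events. Isoform shifts were above 0 in 100 of the 190 member events with a direction (52.6%) and in 55.3% of all events with one.

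The largest member shift ranked 169 among all events and the smallest called one ranked 792, so none was among the most extreme of the table. Just inside the threshold were *Hnrpll* (0.53), *Lsm6* (-0.57) and *Sfrs6* (0.58). Just outside it were *Lsm4* (-0.49), *Clk3* (-0.49) and *Dhx35* (-0.49), which differ from the nearest called values by less than 0.1. In 5 of the 10 called events at least 1 of the 4 intensities was under 100, near the lowest intensity of the table, 43; over all members, 35 events (18.3%) had such an intensity.

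**Figure D1:**
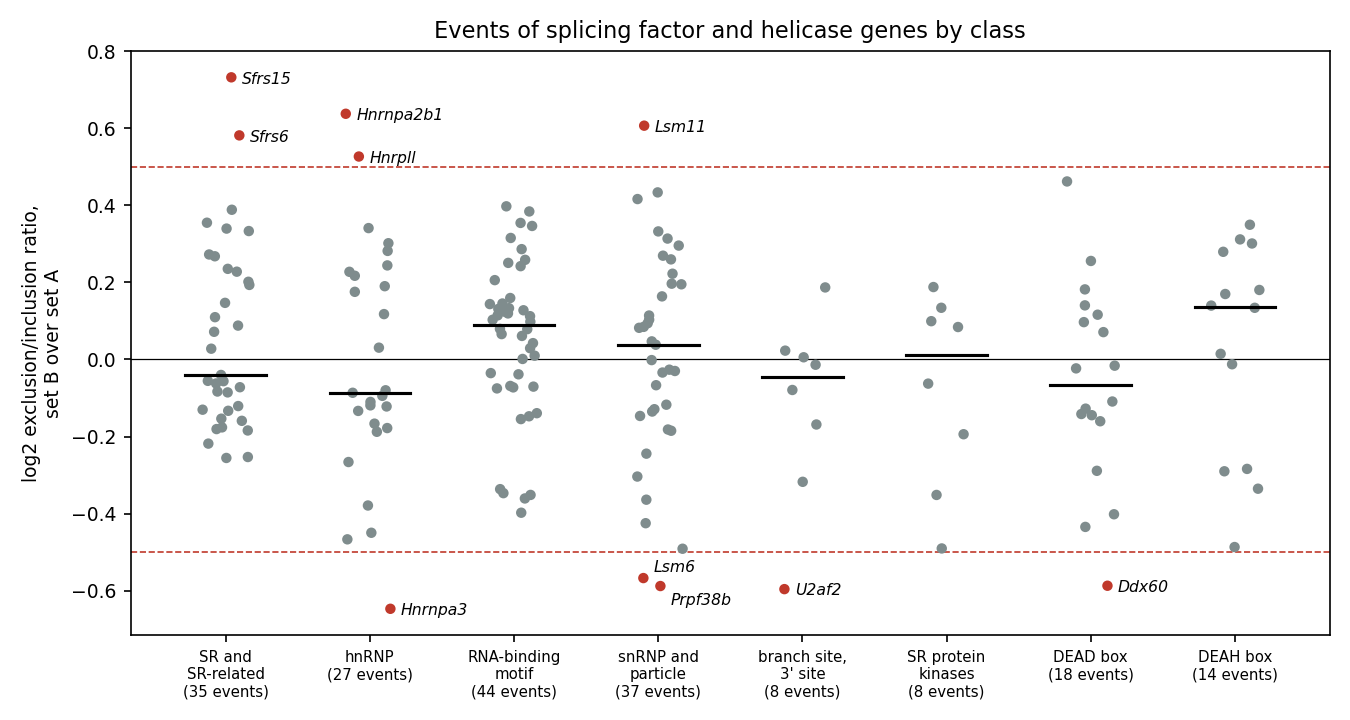
Isoform shift (log2 exclusion to inclusion ratio, set B over set A) of the 191 events by class; each point is 1 event, black bars are class medians, dashed lines mark 0.5 and -0.5, and red points are called events with their gene symbols as in the table. The 10 called events are spread over 5 of the 8 classes, and every class median lies within 0.2 of 0.

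SR proteins and SR-related factors gave 35 events in 18 genes, of which 2 were called (5.71%, against 7.34% of all events), both toward exclusion in set B. *Sfrs6* (now *Srsf6*), an SR protein with paired RNA recognition motifs, carried one of them, a cassette exon of 268 nt at chr2:162757858-162759182 in the positions of the table, whose assembly is not given there. The exclusion probe sets read 649 (set A) and 835 (set B), and the inclusion probe sets 962 and 827. Both sides therefore moved in opposite directions, by 1.29-fold and 0.860-fold, for an isoform shift of 0.58. *Sfrs15* (now *Scaf4*), an SR-related protein that binds the tail of RNA polymerase II, had the highest shift of all members, 0.73, at an alternative 3' splice site of 65 nt at chr16:90242897-90243116. Exclusion read 107 (set A) and 139 (set B), and inclusion 243 and 190, so none of its 4 intensities exceeded 243.

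Other SR genes known for exons that carry a stop codon differed little between the sets at their long cassette exons. *Sfrs3* (*Srsf3*), with a 456-nt exon, had exclusion intensities of 578 and 627 and inclusion intensities of 1405 and 1434 in sets A and B, for a shift of 0.09. *Sfrs7* (*Srsf7*) had 770 and 785 for exclusion and 1365 and 1324 for inclusion of its 460-nt exon, a shift of 0.07. *Sfrs10*, the *Tra2b* gene by its older name, had 2067 and 1774 for exclusion and 349 and 308 for inclusion of a 276-nt exon, a shift of -0.04. For these genes both sides stayed close to the line of equal change, as did the 306-nt exon of *Tra2a*, with exclusion of 207 and 189, inclusion of 134 and 120 and a shift of 0.03. The retained intron of 194 nt in *Sfrs1* (*Srsf1*), the founding SR protein, shifted by 0.24, from exclusion of 1950 to 2151 and inclusion of 636 to 596.

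Within the class, values ran from -0.26 at an alternative start of *Sfrs12* (*Srek1*, an SR-related regulator) to 0.73. *Sfrs5* (*Srsf5*) had 2 complex events at -0.18 and 0.11. *Sfrs7* also had a 36-nt cassette exon at -0.25 and an alternative start at 0.34, so its 3 events lay on both sides of 0. *Srrm2*, a large scaffold protein of the spliceosome, had exclusion of 12202 and 11321, inclusion of 8931 and 8792 and a shift of -0.09. *Rnps1* and *Srrm1*, partners in exon junction and splicing coactivator complexes, had 3 events each, all slightly below 0, between -0.16 and -0.06. The 42-nt event that the table gives to *Srrm1* is placed on chromosome 3, although the gene lies on chromosome 4 in RefSeq, so its gene name is uncertain; its shift was -0.15.

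The SR protein kinases gave 8 events in *Clk1*, *Clk3* and *Clk4*, with no call, against 7.34% of all events. A share of so few events is not precise enough to compare. *Clk1* is known for an exon whose skipping, or whose flanking introns' retention, removes the kinase activity, and the array held all of these choices. The 91-nt cassette exon of *Clk1* had exclusion intensities of 72 and 63 and inclusion intensities of 1390 and 1552, a shift of -0.35. Its flanking introns, of 385 nt and 869 nt, shifted by -0.06 and 0.13. The intron events thus differed less between the sets than the exon. The exclusion side was under 100 in both sets for the exon and also for the 385-nt intron (94 and 93). *Clk4* held cassette exons of 59 nt and 161 nt, at -0.19 and 0.08, and a retained intron of 389 nt at 0.19, the highest value of the class. The lowest, -0.49, came from a 613-nt retained intron of *Clk3*, with exclusion of 103 and 82 and inclusion of 194 and 217.

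Among hnRNP proteins, 27 events in 16 genes gave 3 calls (11.1%, against 7.34% of all events), 2 above and 1 below. *Hnrnpa3*, an A/B-type hnRNP, had the lowest shift of all members, -0.65, at an alternative 5' splice site of 65 nt at chr2:75497380-75499522. The exclusion probe sets read 216 (set A) and 196 (set B), and the inclusion probe sets 520 and 739. This was the single called event whose larger change was on the inclusion side, 1.42-fold higher in set B. *Hnrnpa2b1*, which encodes the A2 and B1 proteins, had a 136-nt cassette exon at chr6:51411432-51413409 with exclusion of 69 and 94, inclusion of 691 and 605 and a shift of 0.64. Its 120-nt cassette exon shifted by -0.17 (exclusion 446 and 401, inclusion 2183 and 2203) and an alternative end by 0.30. The 3 events of this gene spanned 0.80, the widest range among genes with 3 or more events, and the called one rests on exclusion intensities under 100 in both sets.

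*Hnrpll* (now *Hnrnpll*), known for exon exclusion in the CD45 gene of lymphocytes, had a 119-nt cassette exon at chr17:80450185-80461017 with a shift of 0.53. The exclusion probe sets read 96 (set A) and 152 (set B), and the inclusion probe sets 1708 and 1877. Both sides were thus higher in set B, exclusion by 1.58-fold and inclusion by 1.10-fold, and the level shift was 0.40. *Hnrnpk*, a poly(C)-binding hnRNP, had a 72-nt cassette exon just short of the threshold, with exclusion of 1083 and 836, inclusion of 4781 and 5101 and a shift of -0.47. Its 3 other events, at -0.09, 0.03 and 0.12, lay near 0. *Hnrnpd* (AUF1), a binder of AU-rich elements, shifted by -0.18 at its 57-nt exon. *Hnrnpc*, which packages nascent transcripts, had 3 events between -0.12 and 0.24, and *Hnrnph1*, a binder of G-rich runs, an alternative start at -0.38.

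The snRNP core and particle genes gave 37 events in 22 genes, 1 called above and 2 below (8.11% in all, against 7.34% of all events). *Lsm11*, a subunit of the U7 snRNP that processes histone mRNA ends, had a retained intron of 1514 nt at chr11:45745367-45746883. Exclusion, the spliced form, read 90 (set A) and 127 (set B), and inclusion 558 and 517, for a shift of 0.61. *Lsm6*, a subunit of the ring that binds U6 snRNA, had a 99-nt cassette exon at chr8:81336979-81344946 with exclusion of 151 and 111, inclusion of 235 and 256 and a shift of -0.57. *Prpf38b*, a pre-mRNA processing factor, had a 53-nt cassette exon at chr3:108711302-108714102 with exclusion of 229 and 173, inclusion of 420 and 477 and a shift of -0.59. In both of these the exclusion side was lower and the inclusion side higher in set B. *Lsm4*, another subunit of the U6 ring, was nearest below the threshold, at -0.49, with a 99-nt exon whose exclusion was 87 and 69 and whose inclusion was 1288 and 1436.

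*Snrp70* (*Snrnp70*), the 70K protein of the U1 snRNP, had 3 events. Its 1360-nt cassette exon shifted by -0.30, its 80-nt exon by 0.20 and an alternative end by -0.12, so its events did not share a direction. *Snrpn* was steady: its 20-nt cassette exon had exclusion of 6820 and 6694 and inclusion of 410 and 412, a shift of -0.03, and its alternative start shifted by -0.13.

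The highest and lowest shifts among the 21 alternative starts, none of them called, were those of *Lsm2* (0.42), a subunit of the cytoplasmic and nuclear LSM rings, and *Hnrnpu* (-0.45), a scaffold attachment hnRNP. *Lsm2* had exclusion of 417 and 531 and inclusion of 218 and 208, and *Hnrnpu* exclusion of 507 and 386 and inclusion of 1753 and 1823. Their RefSeq promoter windows (GRCm38.p6, 250 bases before to 50 after an annotated start) are shown as sequences of annotated starts of these genes. The table does not say which start belongs to which path, and its positions were not matched to these windows. *Hnrnpu* had 1 window, so no choice between starts is shown for it. Capitals mark matches on either strand to the GC box GGGCGG, the TATA box letters TATAAA, the sequence CCAAT or the NRF1 motif core GCATGCGC, and matches may overlap.
*Lsm2*, start 1, chr17:34981604-34981903, plus strand: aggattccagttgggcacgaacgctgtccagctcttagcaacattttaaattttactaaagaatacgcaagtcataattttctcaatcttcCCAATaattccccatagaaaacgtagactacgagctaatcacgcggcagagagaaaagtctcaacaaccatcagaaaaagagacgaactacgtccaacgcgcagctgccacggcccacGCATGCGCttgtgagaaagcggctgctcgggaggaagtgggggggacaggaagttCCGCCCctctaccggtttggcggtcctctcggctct
*Lsm2*, start 2, chr17:34981880-34982179, plus strand: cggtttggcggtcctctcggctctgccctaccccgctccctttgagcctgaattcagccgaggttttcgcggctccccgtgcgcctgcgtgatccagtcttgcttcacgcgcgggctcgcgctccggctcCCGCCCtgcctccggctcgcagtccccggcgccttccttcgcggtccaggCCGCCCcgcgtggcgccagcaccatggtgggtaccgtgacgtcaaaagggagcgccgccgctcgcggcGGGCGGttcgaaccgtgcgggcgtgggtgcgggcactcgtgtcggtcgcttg
*Hnrnpu*, chr1:178337766-178338065, minus strand: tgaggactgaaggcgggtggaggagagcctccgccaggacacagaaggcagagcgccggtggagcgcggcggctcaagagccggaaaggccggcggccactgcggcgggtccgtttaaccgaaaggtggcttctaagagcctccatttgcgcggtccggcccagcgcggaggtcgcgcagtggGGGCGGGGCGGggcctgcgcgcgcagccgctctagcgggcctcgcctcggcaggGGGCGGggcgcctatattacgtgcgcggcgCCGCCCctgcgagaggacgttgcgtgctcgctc
The first *Lsm2* window held 1 GC box, 1 CCAAT box and 1 NRF1 core, the second 3 GC boxes, and the *Hnrnpu* window 4 GC boxes; none held TATAAA. Of 32851 mouse windows of this length, 35.7% held a GC box, 37.4% a CCAAT box, 13.6% a TATA box and 2.71% an NRF1 core. G and C made up 50.7% and 72.0% of the *Lsm2* windows and 72.7% of the *Hnrnpu* window, against a median of 52.7% over all windows.

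Branch site and 3' splice site factors gave 8 events in 6 genes, with 1 call (12.5%, against 7.34% of all events). *U2af2* encodes the large subunit of U2AF, which binds the polypyrimidine tract, and its 551-nt cassette event had exclusion of 110 and 70, inclusion of 1263 and 1215 and a shift of -0.60. The table places this event at chr7:5018120-9225644, a span of 4207524 bases, far longer than the gene, so its annotation is uncertain. *U2af1* encodes the small subunit, which contacts the AG at the intron end. Its 67-nt cassette exon, at chr17:31788637-31791944, had exclusion of 350 and 325 and inclusion of 255 and 208, a shift of 0.19, the highest of the class. *U2af1* is the single member for which the study also designed primers for a gel assay of alternative forms. In its gel assays, the paper reports no significant difference between *Nxf1* alleles at unlinked introns without a retroviral (IAP) insertion. Whether the *U2af1* primers cover the 67-nt array event was not checked. They are shown, 5' to 3', as the study's own assay of a core 3' splice site factor.
*U2af1* primer 1: tcggttgcacaataaaccaa
*U2af1* primer 2: gcactgttttggggattacg
*U2af1* primer 3: cgtcagcagactgggaaga
*Sf1*, the branch site binding protein, lies on chromosome 19 outside the interval, and its 76-nt exon had exclusion of 134 and 116 and inclusion of 864 and 745, a shift of 0.01. The 2 events of *Sf3b1*, the branch site clamp of the U2 snRNP, shifted by -0.17 and -0.08. Of the 8 events in this class, 7 had a level shift below 0.

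RNA-binding motif proteins gave 44 events in 22 genes, and none was called, against 7.34% of all events. Shifts ran from -0.40 at an alternative end of *Rbm39*, a U2AF-related coactivator, to 0.40 at an alternative 3' splice site of *Rbm42*. Of these events, 30 (68.2%) were above 0, against 55.3% of all events with a direction. *Rbm39* also had a complex event at -0.35, with exclusion of 313 and 236 and inclusion of 708 and 679. *Rbm5*, a regulator of apoptosis gene splicing, had 4 events between -0.14 and 0.10. *Rbm3*, the cold-inducible RNA-binding protein, spanned 0.74, from -0.35 at an alternative end to 0.38 at a 129-nt cassette exon with exclusion of 62 and 77 and inclusion of 2146 and 2042. *Rbm14*, *Rbm4b* and *Sf1* gave the 5 member events on chromosome 19 outside the interval, with shifts from -0.08 to 0.08.

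DEAD box helicases gave 18 events in 15 genes with 1 call (5.56%), and DEAH box helicases 14 events in 8 genes with none. Over all events 7.34% were called, and shares of so few events are not precise enough to compare with it. *Ddx60*, an interferon-induced helicase of antiviral sensing, had a 106-nt cassette exon at chr8:64407073-64418795 with a shift of -0.59. Its intensities were 85 and 66 for exclusion and 96 and 112 for inclusion, so 3 of the 4 were under 100. *Ddx17*, a coregulator of splicing and transcription, had the highest DEAD box value, 0.46, at an alternative 3' splice site of 1295 nt with exclusion of 984 and 1236 and inclusion of 896 and 817. Its alternative end shifted by -0.02, and that of its close relative *Ddx5* by 0.18.

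*Dhx30*, a helicase of mitochondrial and cytosolic RNA granules, had the smallest range, 0.03, among the 26 genes with 3 or more events. Its alternative 3' splice site, cassette exon and alternative start shifted by 0.28, 0.30 and 0.31. The table places the 3' splice site event within the span of the start event, so that pair is not separate evidence. The lowest value of the DEAH class was that of *Dhx35*, a retained intron at -0.49, and the highest among events with a direction was the *Dhx30* start. A complex event of *Dhx32* without an exclusion path, and so with no direction, had a size of 0.35. The class median absolute shift was 0.28, the highest of the 8 classes, whereas that of the DEAD box class was 0.14. *Ddx26b*, which the symbol rule takes in, is now *Ints6l*, a subunit related to the Integrator complex; its 212-nt retained intron shifted by -0.29.

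In 9 of the 10 called events the exclusion side changed more than the inclusion side, and in 8 the sides moved in opposite directions. Over all members the exclusion side changed more in 117 events (61.3%), and over the whole table in 56.4%. The exceptions with both sides moving the same way were *Hnrpll*, higher on both, and *U2af2*, lower on both. A call on the ratio itself favours sides that move apart, and neither count was made over the 950 called events of the array.

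**Figure D2:**
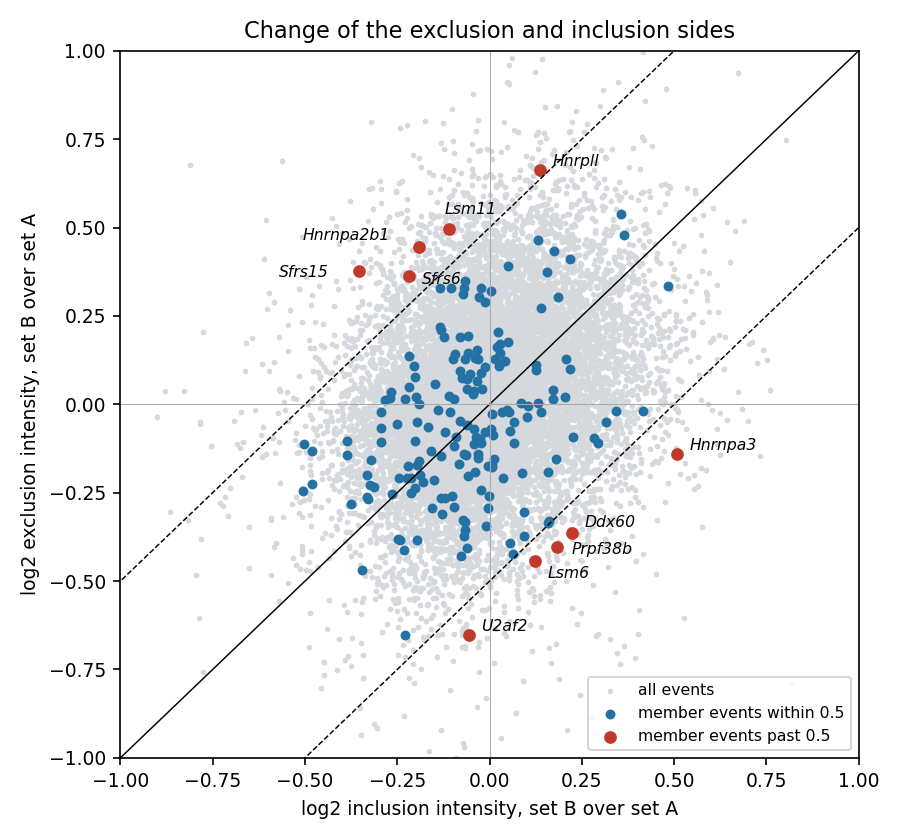
Log2 change of the exclusion intensity (vertical axis) against that of the inclusion intensity (horizontal axis), set B over set A; grey points are all events, blue and red points the 191 member events within and past 0.5, and dashed lines mark an isoform shift of 0.5 and -0.5. Axes are cut at 1, which leaves out 16 events and no member; red points lie above the upper or below the lower dashed line, and more blue points fall in the lower left (78 in all, with red points) than in the upper right (30).

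Level shifts of the members were more often below 0 than those of the array. They were below 0 in 114 events (59.7%), against 48.7% of all events, with medians of -0.06 and 0.01. Exclusion and inclusion were both lower in set B in 78 events (40.8%) and both higher in 30 (15.7%), whereas the whole table had 29.4% and 28.7%. Among all events the median level shift was lower in brighter events. In 4 equal groups, from dimmest to brightest, it was 0.056, 0.013, -0.007 and -0.033. The members' medians in the same groups were -0.054, -0.010, -0.053 and -0.070. Branch site factors (-0.16), snRNP genes (-0.09), hnRNP genes (-0.08), *Rbm* genes (-0.05) and SR genes (-0.04) had medians below 0, while the DEAD and DEAH box classes were at 0.05 and 0.01. The median of the SR protein kinases was -0.0004. How the arrays were normalized is not given in the sources used here, and in a bulk sample fewer cells of a type and less RNA per cell cannot be told apart. Neuronal markers were lower in set B in 9 of 10 genes (range -0.23 to 0.29), astrocyte markers in 2 of 5 (-0.06 to 0.11) and oligodendrocyte markers in 3 of 4 (-0.08 to 0.07); the 4 genes of other tissues were all higher (0.04 to 0.31). Their part in the members' levels was not tested.

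The lowest level shifts came from 2 complex events of *Luc7l2*, a U1-associated factor, at -0.44 and -0.38, and from an alternative 3' splice site of *Hnrnpc* at -0.41. In the first of these *Luc7l2* events exclusion was 247 and 157 and inclusion 839 and 716, and in the second 403 and 340, and 1036 and 730. The table places both at the same positions, so they are not separate evidence of its level, and their isoform shifts had opposite signs, -0.43 and 0.26. The highest level shifts were 0.45 for *Dhx34*, a helicase of nonsense-mediated decay (exclusion 113 and 164, inclusion 171 and 219), 0.42 for *Rbm35a* (now *Esrp1*, an epithelial splicing factor) and 0.41 for *Rbm47*. Of these, the *Rbm35a* event had intensities under 100, 59 and 76 for inclusion. Of the 26 genes with 3 or more events, 8 had every level shift below 0 and 4 every one above 0.

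Within a gene, events often differed in the direction of their isoform shift. Of the 26 genes with 3 or more events, which held 84 events, 19 had values on both sides of 0, while 5 lay entirely above and 2 entirely below it. Unrelated signs would also place most such genes on both sides of 0. The share over the other genes of the array was not computed. The median range within a gene was 0.40. The widest ranges after *Hnrnpa2b1* were those of *Lsm2* (-0.36 to 0.42), *Rbm3* and *Luc7l2* (-0.43 to 0.26). Genes entirely above 0 were *Dhx30*, *Sfrs14* (now *Sugp2*, 0.20 to 0.33), *Dhx57*, *Luc7l* and *Rbm26*.

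**Figure D3:**
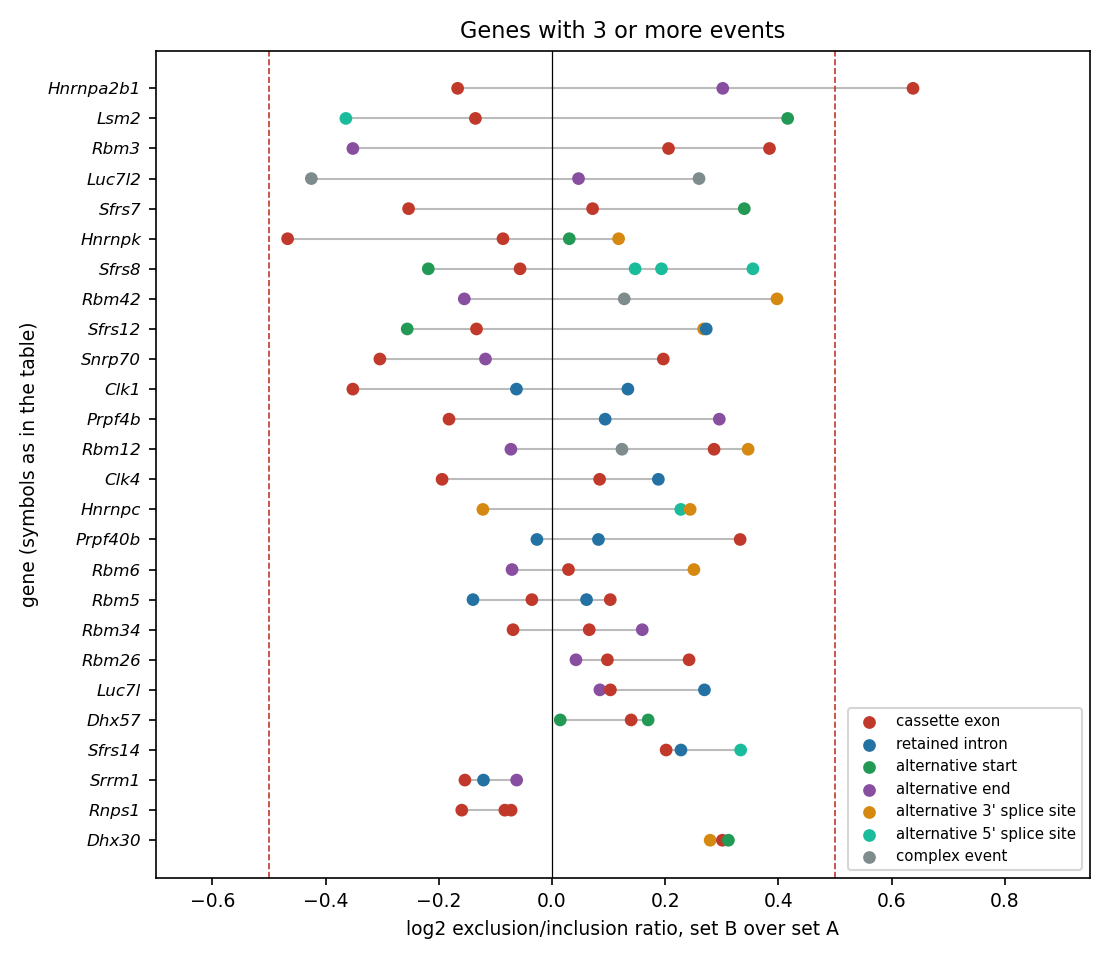
Isoform shift (log2, horizontal axis) of each event in the 26 genes with 3 or more events, ordered by range; each point is 1 event coloured by type, grey lines join the lowest and highest, and dashed lines mark 0.5 and -0.5. A single point lies past a dashed line, the 136-nt cassette exon of *Hnrnpa2b1*, and *Dhx30* at the bottom has 3 nearly equal values.

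Some events of a gene describe neighbouring choices. In 6 cassette exons the table also held a flanking intron as a retention event, and in 3 of them, in *Clk1*, *Prpf40b* and *Rbm5*, both introns. In *Prpf40b*, a U1-associated factor, a 28-nt microexon shifted by 0.33 and its introns of 212 nt and 673 nt by 0.08 and -0.03. In *Rbm5* a 74-nt exon shifted by 0.10 and its introns of 470 nt and 2781 nt by 0.06 and -0.14. Exon and flanking introns thus did not share a value in these genes. They also differed in *Sfrs12* (exon -0.13, intron 0.27) and *Luc7l* (0.10 and 0.27), while in *Sfrs14* the 87-nt exon (0.20) and its 639-nt intron (0.23) were close. A value above 0 means relatively more skipping of a cassette exon but more of the spliced form of a retained intron, so equal values are not the same change.

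By event type, cassette exons made up 75 of the 191 events, with 7 calls (9.33%, against 8.56% of all cassette exons). Retained introns numbered 27 with 1 call (background 9.87%), alternative 3' splice sites 18 with 1 call (background 9.09%) and alternative 5' splice sites 12 with 1 call (background 10.8%). None of the 29 alternative ends (background 2.78%), 21 alternative starts (background 6.32%) and 8 complex events (background 8.38%) was called. Alternative 3' splice sites were more often above 0: 15 of 18 (83.3%) lay there, with a median of 0.25, against 60.6% and 0.09 over all 803 events of this type. The 3 below 0 were those of *Ddx49* (-0.16), *Hnrnpc* (-0.12, its 503-nt event) and *Hnrnpm* (-0.08), and all of these were small.

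Of the 75 cassette exons, 29 (38.7%) had a length that is a multiple of 3, against 53.2% of all cassette exons with a stated length. The lengths themselves were similar, with medians of 106 nt and 101 nt. Among the 46 exons that shift the reading frame 6 were called, and among the 29 that keep it 1, the exon of *Lsm6*. Over the whole table these shares were 9.55% and 7.59%. A length that is a multiple of 3 does not exclude a stop codon within the exon, as in the *Sfrs3* and *Sfrs10* exons. The 20 member exons over 150 nt had a median absolute shift of 0.10, against 0.20 for the 839 such exons of the table, and the called ones were those of *Sfrs6* and *U2af2*. Member introns were longer than those of the array, with medians of 639 nt and 335 nt, and had a median absolute shift of 0.13, against 0.22 over all retained introns.

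**Figure D4:**
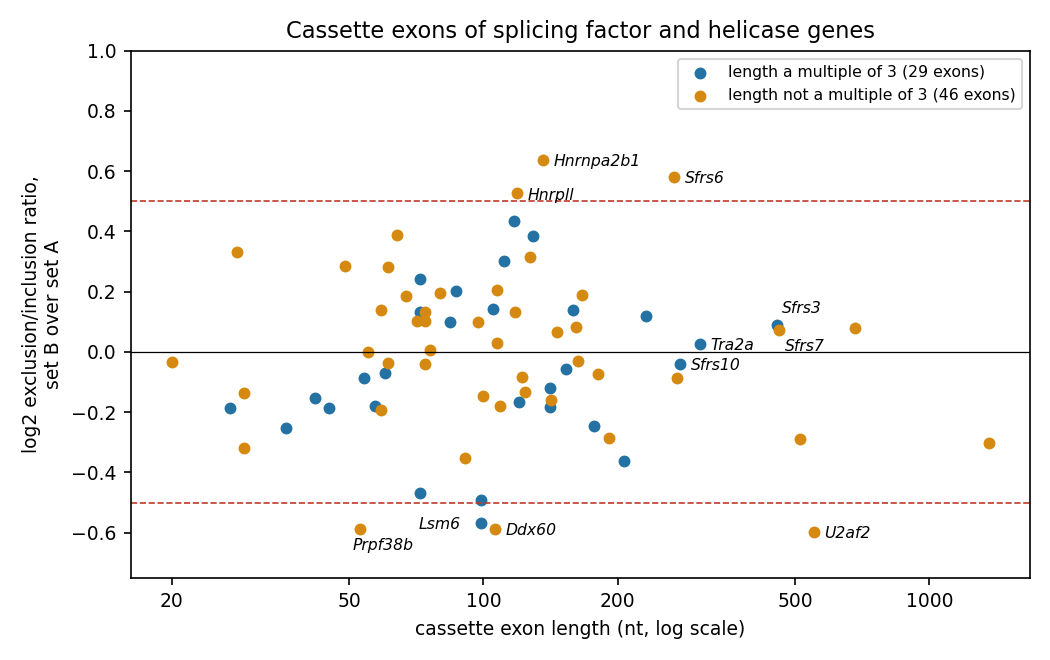
Isoform shift (log2, vertical axis) of the 75 member cassette exons against exon length (nt, log scale); blue exons have a length that is a multiple of 3, orange exons do not, and dashed lines mark 0.5 and -0.5. Named points are the 7 called exons and the long exons of *Sfrs3*, *Sfrs7*, *Sfrs10* and *Tra2a*, which lie near 0 while that of *Sfrs6* lies at 0.58.

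A list of other spliceosome and splicing-associated genes gave 75 events in 36 genes, with 4 called above and 2 below. The calls made up 8.0% of the list, near the 7.34% of all events, and the median absolute shift was 0.19, against 0.18. Among those above were *Sart3* (0.75), a recycling factor of the U4/U6 snRNP, an alternative end of *Taf15* (0.61) and *Srpk2* (0.53), an SR protein kinase. Below were the 60-nt exon of *Tial1* (-0.79), a U-rich element binder with exclusion of 345 and 182, and a retained intron of *Taf15* (-0.53). As among the members, level shifts were mostly below 0, in 49 of 75 events (65.3%).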

How the data were processed

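Affymetrix MJAY arrays were hybridized with brain RNA of 6 mice, 3 of each *Nxf1* genotype, 1 array per mouse. The deposited table holds, for each path of an event, summarized exclusion and inclusion signal intensities that the authors pooled over the arrays of a set, as whole numbers. These were treated as linear values of another kind, since their scale and normalization are not given in the sources used here. Affymetrix Power Tools is named in the submitters' processing notes; its version, the background correction and the genome assembly are not given in the sources used here. The authors' deposited table also holds their own comparison, a score with its q-value for a paired and a standard analysis, which was not used.

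Paths were joined into events by name, and the isoform shift was taken from the exclusion path, or from the path with the largest absolute value where none is marked. Calls were made at an absolute log2 value over 0.5, with no filter and no pseudocount. Members and gene lists were chosen with earlier results of these data known. Events were named when called, when highest or lowest in a class, when nearest the threshold, when belonging to a list of textbook genes, or within genes with 3 or more events; others in the text were chosen after their values were seen. Of 110 symbols, 89 matched RefSeq symbols (GRCm38.p6) and 20 matched synonyms. Of 190 events in matched genes, 9 overlapped the gene's GRCm38 span and 189 lay on its chromosome, so the table's positions were used only as given. The reading of events was tested on simulated data. Alternatives were the 1.5-fold, 2-fold and 0.25 thresholds, the median over paths, 50 added to intensities, leaving out intensities under 100, centring on all events or on the event type, leaving out helicases, and genes as the unit. With 3 arrays per set and no values per array, precision could not be estimated. Python 3.11.15, numpy 2.4.6, pandas 2.3.3 and matplotlib 3.10.9 were used.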

Additional observations from a re-analysis of the deposited data

How the results depend on the processing

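The count of 10 called members became 7 at a 1.5-fold threshold, 0 at 2-fold, 65 at 0.25, 3 with 50 added to each intensity and 5 without events holding an intensity under 100. As shares of members these were 3.66%, 0, 34.0%, 1.57% and 3.21%, against 3.78%, 0.224%, 34.3%, 3.18% and 6.50% of all events under the same settings, so the members' share was lower by a factor of about 2 in the last 2. No test was run at any of these thresholds. Adding 50 kept the calls of *Sfrs15*, *Hnrnpa3* and *Sfrs6* and lowered the median absolute shift from 0.17 to 0.136, against 0.143 over all events. With genes as the unit, each taken at its largest absolute shift, the median was 0.243 for members and 0.235 for all genes. By this unit 9.09% of member genes were called, against 11.7% of all genes. Subtracting the median of all events, or of the event type, gave 13 calls each (4 above and 9 below). These were 6.81% of members, against 7.12% and 7.13% of all events, so the members' lower share nearly vanished. The split by direction over all events was not computed under these settings. *Hnrpll* was lost (0.49 and 0.48), and *Lsm4*, *Clk3*, *Dhx35* and *Hnrnpk* were gained. The share of events above 0 ran from 48.4% to 53.5%. It fell below an even split only under centring, which by construction places all events near an even split. Without centring it was 52.6% against 55.3% of all events with a direction, and 51.6% against 55.7% without events holding an intensity under 100. Events of a gene are not independent, so no error is given for this share. The median level shift stayed between -0.07 and -0.06, under alternatives chosen after seeing the data. No called value changed sign under the settings tried. No paired analysis was possible because the table holds no values per array; leaving out each replicate was not run for the same reason. Array signal limits the dimmest events, and *Ddx60*, *U2af2*, *Hnrnpa2b1*, *Hnrpll* and *Lsm11* each rest on an intensity under 100.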
